A study of Mus musculus with 8 samples.

Results

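Baseline differences between genotypes were measured in cultured mouse pancreatic islets that had received only the solvent DMSO. Of the 8 RNA-seq libraries in the series, 4 entered this comparison: 2 labelled wild type and 2 labelled STING KO, the latter from Sting-/- mice. The mice were 25 to 30 weeks old. Their islets were picked by hand after collagenase digestion, rested overnight and held for 3 h in DMSO. The other 4 libraries came from islets of the same genotypes held for 3 h with DMXAA at 50 µg/mL. The series as a whole concerns STING, islets and their macrophages in obesity. The labels do not describe the deleted allele, the diet, the sex or the number of mice behind a library, so p-values measure the spread between libraries, which may be technical.

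STING, encoded by Sting1, is a membrane protein of the endoplasmic reticulum that responds to cyclic dinucleotides made by the DNA sensor cGAS. Once active it recruits the kinase TBK1, which activates the transcription factor IRF3 and induces type I interferon, and it also feeds into NF-kB. DMXAA is a small-molecule agonist of mouse STING, so the DMSO libraries show islets without that stimulus. An islet holds beta, alpha, delta and PP endocrine cells threaded with capillaries, pericytes and resident macrophages, and picked islets can carry acinar, duct or lymphoid tissue. In bulk RNA, fewer cells of a type and less RNA per cell cannot be told apart.

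In the knockout-labelled DMSO islets, 38 of 17055 genes differed from wild type (edgeR's quasi-likelihood test, Benjamini-Hochberg adjusted p under 0.05), which is 0.223% of the genes tested. There were 31 genes higher (0.182%) and 7 lower (0.041%). The higher genes were mainly B lymphocyte and antigen presentation genes (11 genes), other leukocyte genes (5 genes) and stress and inflammatory response genes (11 genes). Among the lower genes, 5 belong to vessels, pericytes and matrix. These role groups were formed after the calls were seen. The listed endocrine hormones, islet transcription factors and genes of the secretory machinery held no called gene. At an unadjusted p under 0.05 there were 2092 of the 17055 genes tested. Counts at that threshold in the lists below stand against this share. The library values of the genotypes did not overlap for any of the 38 called genes, nor for 46.7% of all genes tested. Non-overlap given below for an uncalled gene stands against this share. For the called genes non-overlap follows largely from their selection in these same libraries and adds no support. The count rested on single libraries: it was 3 without knockout-labelled DMSO replicate 1 and 6 without replicate 2. It was 24 without wild-type DMSO replicate 1 and 240 without replicate 2, and 94 and 80 without knockout-labelled DMXAA replicates 1 and 2. C2cd4a and Ighg2c were the calls that remained when either knockout-labelled DMSO library was left out, and the other 36 were lost without at least one of them. The call of Ighg2c was lost in 5 of the 17 alternative fits: the older form of the quasi-likelihood fit, DESeq2, limma-voom, and without either wild-type DMSO library.

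**Figure D1:**
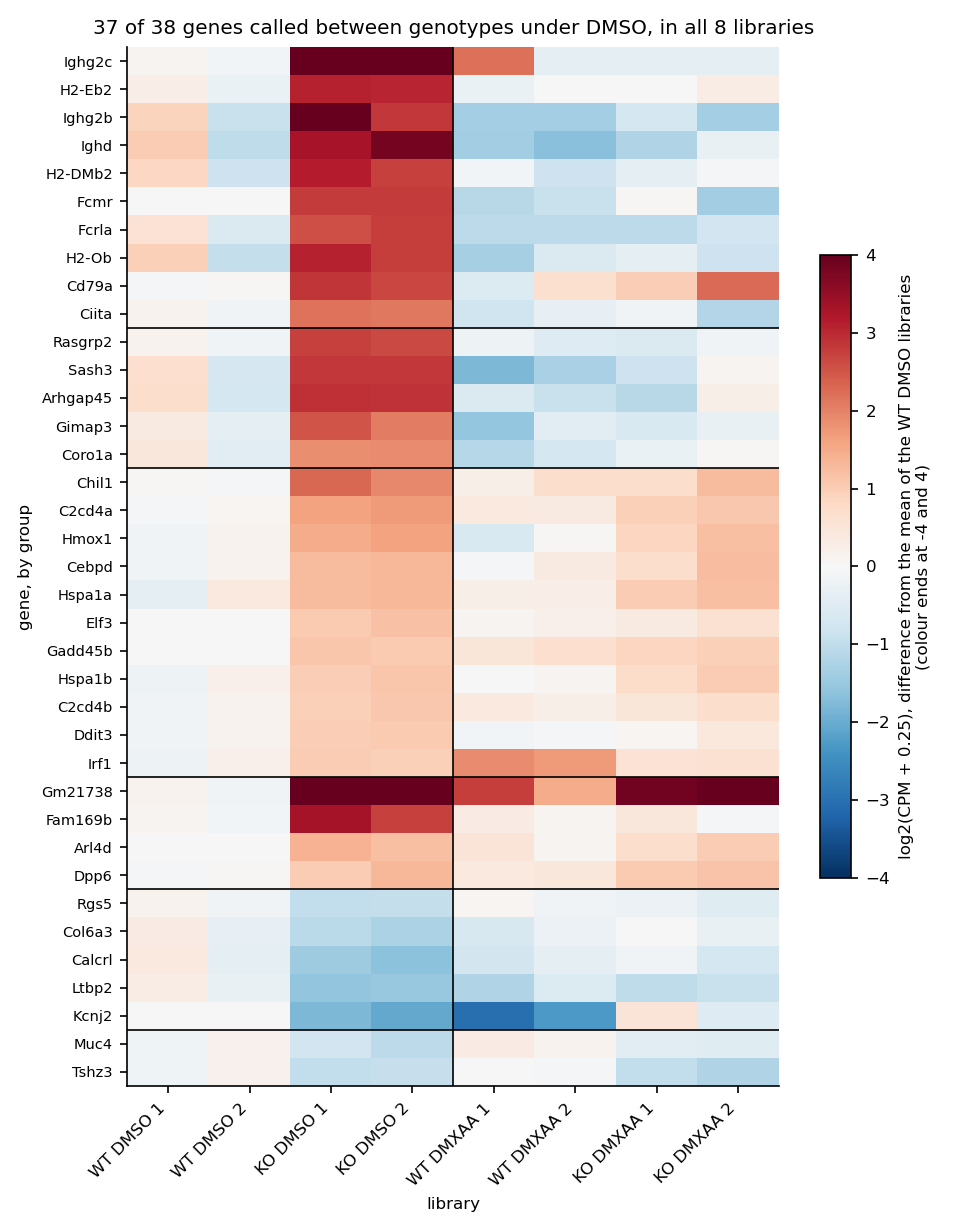
Heat map of 37 of the 38 called genes (rows, ordered by role group) in all 8 libraries (columns), coloured by log2(CPM + 0.25) minus the mean of the wild-type DMSO libraries, with colour ending at -4 and 4. The B lymphocyte and antigen presentation genes shown are red in both knockout-labelled DMSO libraries, while 5 of the 11 stress and inflammatory genes were also called higher in the knockout-labelled DMXAA libraries.

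Sting1 did not separate the genotypes. It lies on the minus strand at chr18:35733679-35740554 (mm10) and had 39 and 41 counts in wild type and 48 and 19 in the knockout-labelled libraries. As counts scaled for library size (CPM) these are 2.05 and 2.02 against 3.20 and 1.08, a log2 difference of 0.03 with an adjusted p of 0.984. The knockout-labelled values lay on either side of wild type. Counts over the whole gene need not fall when part of it is deleted, and the allele is not described, so Sting1 does not check the labels, on which every direction given here rests. A reading outside this comparison was the summed level of 54 interferon-stimulated genes after DMXAA, at 6072 and 6555 CPM in wild type against 955 and 799 CPM in the knockout-labelled libraries. Within 1 Mb of Sting1, edgeR called 0 of 36 genes tested (2 at an unadjusted p under 0.05, 0 by DESeq2 and by limma-voom). Within 5 Mb it called 0 of 151 (15 unadjusted, 1 by DESeq2, 0 by limma-voom). On chromosome 18 as a whole it called 0 of 438 (45 unadjusted, 3 by DESeq2, 0 by limma-voom). Chromosome 1 held 6 calls among 1024 genes tested, chromosome 7 held 5 of 1319, chromosome 17 held 5 of 827 and chromosome 12 held 4 of 632. Chromosome 4 held 0 of 1031. With 0.223% of all genes called, the absence of calls in sets of these sizes cannot set chromosome 18 apart. Of 8 tested transcripts known to vary between mouse strains, none was called by any of the 3 tools, nor at an unadjusted p under 0.05.

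The 4 DMSO libraries held 15624020 to 18802114 counts, and all 8 libraries shared one estimate of the spread, a biological coefficient of variation of 17.1%. Ins2 took 11.5% to 17.0% of the counts in the DMSO libraries. Replicates of a group differed beyond counting noise, with a chi-square per degree of freedom of 35.6 for wild-type DMSO and 6.83 for knockout-labelled DMSO, so none was a copy of another. Wild-type DMSO replicate 1 stood apart in exocrine RNA: 25 acinar markers summed to 7722 CPM there, to 1557 in wild-type replicate 2, and to 1827 and 2682 in the knockout-labelled libraries. The DMSO libraries all expressed Y-linked genes: Ddx3y lay at 116 and 78.7 CPM in wild type and at 72.3 and 79.2 CPM in the knockout-labelled libraries.

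The rise with the smallest p-value was in C2cd4a, and its neighbour C2cd4b rose too. Both encode nuclear C2-domain proteins that are induced by cytokines in endothelial cells and are expressed in islets. They lie 71.1 kb apart on chromosome 9, at chr9:67830489-67832330 and chr9:67759437-67760930. Heat shock proteins Hspa1a and Hspa1b, a nearly identical pair 12.8 kb apart on chromosome 17, rose as well, and so did the stress genes Ddit3 and Gadd45b. The sequences just before the transcription starts of these 6 genes are shown because 2 neighbouring pairs rose together, and Ddit3 and Gadd45b are stress genes with a motif match. They are from RefSeq (GRCm38.p6), 250 bases each, read 5′ to 3′ on the gene's strand, with matches to a searched motif in capitals: C2cd4a at chr9:67832331-67832580 (minus), C2cd4b at chr9:67759187-67759436 (plus), Hspa1a at chr17:34972157-34972406 (minus), Hspa1b at chr17:34959239-34959488 (minus), Ddit3 at chr10:127290543-127290792 (plus) and Gadd45b at chr10:80929841-80930090 (plus).
C2cd4a: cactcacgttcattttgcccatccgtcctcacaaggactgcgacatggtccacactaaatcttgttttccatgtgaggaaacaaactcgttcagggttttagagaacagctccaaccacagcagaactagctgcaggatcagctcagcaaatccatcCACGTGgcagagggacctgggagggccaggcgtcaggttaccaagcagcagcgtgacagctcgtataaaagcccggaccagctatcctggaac
C2cd4b: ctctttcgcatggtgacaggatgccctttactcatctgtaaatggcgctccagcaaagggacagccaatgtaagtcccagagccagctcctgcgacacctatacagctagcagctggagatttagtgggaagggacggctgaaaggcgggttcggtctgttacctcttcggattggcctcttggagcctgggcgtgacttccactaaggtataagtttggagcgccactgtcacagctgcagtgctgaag
Hspa1a: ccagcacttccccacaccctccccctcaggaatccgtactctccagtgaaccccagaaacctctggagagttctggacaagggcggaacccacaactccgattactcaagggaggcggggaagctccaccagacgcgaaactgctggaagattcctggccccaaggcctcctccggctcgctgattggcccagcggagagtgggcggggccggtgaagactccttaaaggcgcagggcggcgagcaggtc
Hspa1b: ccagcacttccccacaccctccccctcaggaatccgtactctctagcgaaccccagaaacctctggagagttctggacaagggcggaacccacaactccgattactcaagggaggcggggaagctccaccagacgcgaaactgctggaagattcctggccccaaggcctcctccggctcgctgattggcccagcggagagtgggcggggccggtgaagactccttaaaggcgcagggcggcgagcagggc
Ddit3: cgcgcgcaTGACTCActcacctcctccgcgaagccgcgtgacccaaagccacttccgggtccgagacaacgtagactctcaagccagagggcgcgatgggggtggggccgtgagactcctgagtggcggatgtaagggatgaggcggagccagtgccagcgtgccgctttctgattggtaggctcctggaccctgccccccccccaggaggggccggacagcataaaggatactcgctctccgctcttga
Gadd45b: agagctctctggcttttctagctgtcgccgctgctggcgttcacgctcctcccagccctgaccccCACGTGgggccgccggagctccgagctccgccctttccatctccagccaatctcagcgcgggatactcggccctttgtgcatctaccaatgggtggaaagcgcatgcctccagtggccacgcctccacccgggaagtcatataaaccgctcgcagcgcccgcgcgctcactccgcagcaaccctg
The capitals mark the E-box CACGTG, starting 93 bases before the start of C2cd4a and 185 before that of Gadd45b, and the AP-1 motif TGAGTCA on the opposite strand, 242 bases before the start of Ddit3. The Hspa1a and Hspa1b stretches were identical at 247 of 250 positions, against 59 of 250 for C2cd4a and C2cd4b set side by side without gaps.

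None of the motifs overlapped another in the sequences printed. Motifs were counted on both strands in the window from 250 bases before to 50 after each start, for the 30 called genes that matched the RefSeq table. CACGTG occurred in 5 of these 30 genes (Sash3, Arhgap45, C2cd4a, Gadd45b and Kcnj2), against 8.09% of all genes in the table. TGAGTCA occurred in 1 of the 30 (5.95% of all genes), and the cyclic AMP response element TGACGTCA in Arl4d (2.03%). The core of the interferon-stimulated response element occurred in Fam169b and Fcrla (3.99% of all genes), and neither of the kappa B decamers searched was found in these 30 (0.174% and 0.107% of all genes). Motifs added after the calls were seen were the antioxidant core TGACNNNGC, in 3 of the 30 genes against 14% of all, and the heat shock element, in none of the 30 against 0.662%. The heat shock element was searched only as an exact match to a fixed consensus. Imperfect forms of that element were not searched, so its absence does not extend to them, in Hspa1a and Hspa1b or in the other called genes. The 8 called genes that matched no entry included Gm21738, Ighg2c, Ighg2b, Ighd, Ciita, Hmox1 and Cebpd.

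Among the stress and inflammatory genes, C2cd4a lay at 16.6 and 18.4 CPM in wild type and at 53.5 and 57.5 CPM in the knockout-labelled islets. Every knockout-labelled value was above every wild-type value, and the log2 difference was 1.66 ± 0.16 (SE, adjusted p = 0.0011). C2cd4a was the sole gene called in all 17 alternative fits. C2cd4b rose from 74.7 and 91.4 CPM to 161.0 and 176.0 CPM, a log2 difference of 1.02 ± 0.16 (adjusted p = 0.021).

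Hmox1 encodes heme oxygenase 1, a heme-degrading enzyme of the oxidative stress response. Its values were 190.8 and 227 CPM in wild type and 580.2 and 638 CPM in the knockout-labelled libraries, a log2 rise of 1.54 ± 0.21 (adjusted p = 0.0098). Wild-type and knockout-labelled values did not overlap. It was the single called member of 14 tested NRF2 targets and metallothioneins, whose median log2 difference was 0.47 against 0.00025 for all genes tested (DESeq2 called 3, limma-voom 1, and 7 had an unadjusted p under 0.05). The metallothionein Mt1, a metal-binding protein, lay at 1199 and 655 CPM in wild type and 1992 and 3125 CPM in the knockout-labelled libraries, with no overlap but an adjusted p of 0.14.

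Hspa1a, an inducible HSP70 chaperone, stood at 53.5 and 90.6 CPM in wild type and at 166 and 176 CPM in the knockout-labelled libraries (log2 difference 1.25 ± 0.20, adjusted p = 0.027). Hspa1b stood at 106 and 138 against 238 and 262 CPM (log2 difference 1.03 ± 0.17, adjusted p = 0.027). Both genes were higher in each knockout-labelled library, but counting can split reads between these near-identical copies, so their separate values are uncertain. They were the members edgeR called among 14 tested heat shock proteins (3 by DESeq2, 2 by limma-voom, 5 at an unadjusted p under 0.05), 13 of which had positive differences with a median of 0.18. Dnajb1, an HSP40 partner of HSP70, lay at 120 and 138 against 214 and 269 CPM without passing the test (adjusted p = 0.071).

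Ddit3, encoding the transcription factor CHOP of the integrated stress response, rose from 87.3 and 106 CPM to 189 and 197 CPM. The log2 difference was 1.001 ± 0.16 (adjusted p = 0.027), with no overlap. It was edgeR's single call among 28 genes of endoplasmic reticulum stress and the integrated stress response, whose median was 0.10, with 16 positive and 12 negative. DESeq2 called 4 of these genes and limma-voom 1, and 10 had an unadjusted p under 0.05. The upstream factor Atf4 lay at 356 and 523 against 688 and 711 CPM (adjusted p = 0.21), and the chaperone Hspa5 at 2945 and 2306 against 2534 and 2320 CPM (adjusted p = 0.81). Neither passed the test. Hspa5 values overlapped between genotypes.

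Further rises were in regulators of inflammation and growth arrest. Cebpd, a C/EBP transcription factor of the acute phase response, rose from 91.6 and 112 CPM to 243 and 254 CPM (log2 difference 1.29 ± 0.20, adjusted p = 0.025). Elf3, an epithelial ETS factor, rose from 100.2 and 103 CPM to 209 and 231 CPM (1.11 ± 0.15 on the log2 scale, adjusted p = 0.0098). Gadd45b, a stress sensor of the GADD45 family, rose from 27.0 and 27.5 CPM to 59.1 and 56.5 CPM, by 1.08 ± 0.15 on the log2 scale (adjusted p = 0.0098). In all of these the replicates lay close together and the genotypes were well apart. Chil1, a chitinase-like glycoprotein, was low, at 0.631 and 0.590 CPM in wild type and 3.93 and 3.00 CPM in the knockout-labelled libraries.

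Irf1, an interferon-regulatory transcription factor, stood at 38.6 and 50.9 CPM in wild type and at 89.3 and 86.0 CPM in the knockout-labelled libraries. It was higher in both of the latter, with a log2 difference of 0.97 ± 0.16 (adjusted p = 0.029). It was edgeR's single call among 54 interferon-stimulated genes (1 by DESeq2, 1 by limma-voom, 15 at an unadjusted p under 0.05), whose median went the other way, at -0.26, with 39 negative. Rsad2, the antiviral enzyme viperin, lay at 28.4 and 31.0 CPM in wild type and 13.9 and 8.83 CPM in the knockout-labelled libraries, with no overlap and an adjusted p of 0.14. The chemokine gene Cxcl10 lay at 7.79 and 2.95 against 9.34 and 5.89 CPM (adjusted p = 0.62), and its values overlapped. Ifnb1, encoding interferon beta, had a total of 1 count over the 4 libraries. None of 20 tested genes of STING and DNA sensing was called (2 at an unadjusted p under 0.05, 0 by DESeq2 and by limma-voom), and their median was -0.01.

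Among 21 tested NF-kB targets and inhibitors edgeR called none, DESeq2 called 4 and limma-voom 0. Of these 21, 17 had positive differences, 12 had an unadjusted p under 0.05, and the median was 0.60. Nfkbia, the inhibitor IkB-alpha, lay at 47.3 and 50.7 CPM in wild type and 83.3 and 84.7 CPM in the knockout-labelled libraries (adjusted p = 0.053). Sod2, mitochondrial superoxide dismutase, lay at 69.7 and 82.3 against 134 and 122 CPM (adjusted p = 0.071). Bcl3, a nuclear IkB protein, lay at 34.2 and 48.2 against 74.5 and 80.3 CPM (adjusted p = 0.080). The genotypes did not overlap for these 3 genes, which missed the threshold.

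**Figure D2:**
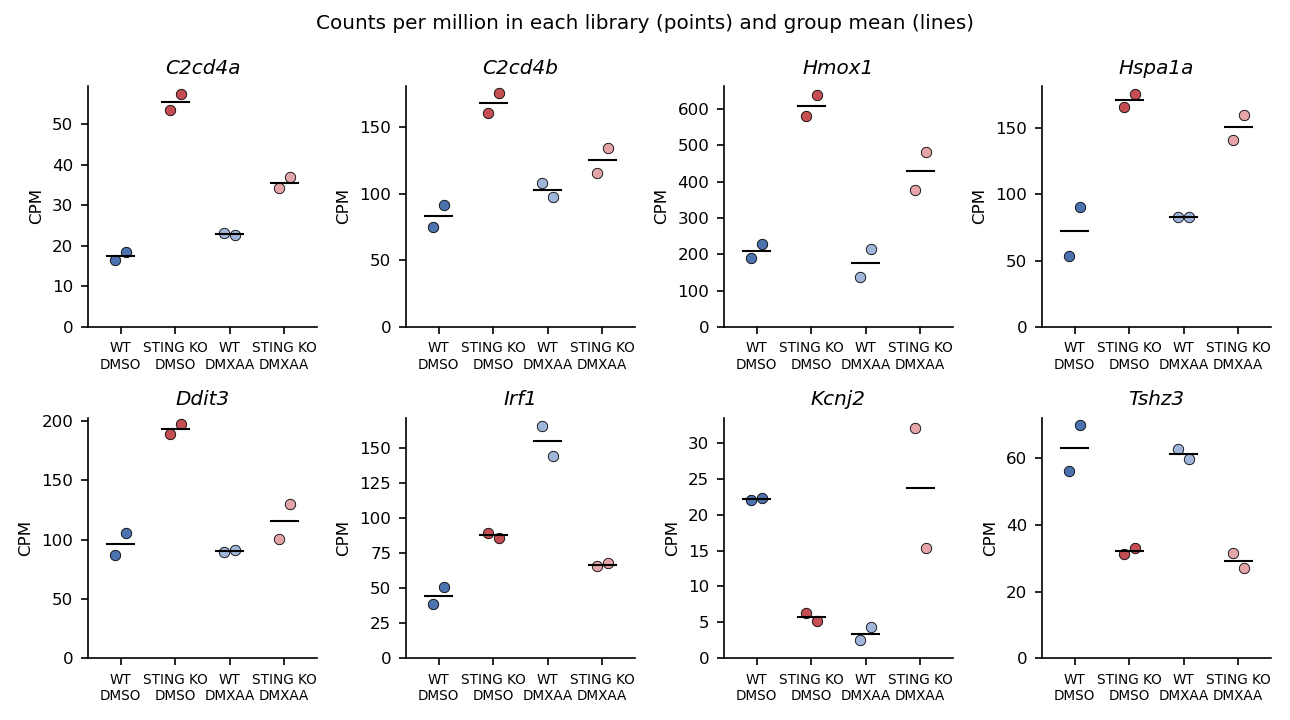
CPM on a linear axis from 0 for 8 called genes, with a point for each library and a line at each group mean (2 libraries a group). C2cd4a, C2cd4b, Hmox1, Hspa1a, Ddit3 and Irf1 are higher and Kcnj2 and Tshz3 lower in the knockout-labelled DMSO islets, and for Irf1 and Kcnj2 the order of the genotypes turns under DMXAA.

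B lymphocyte markers had the highest median log2 difference of the 39 lists. Of 14 tested B cell markers, edgeR called 5 higher (among them Cd79a, Fcmr, Ighd and Ighg2c), DESeq2 called 3 and limma-voom 2, and 11 had an unadjusted p under 0.05. All 14 had positive log2 differences with a median of 3.04. That median was 4.92 without wild-type DMSO replicate 1 and 2.12 without wild-type DMSO replicate 2. The markers summed to 49.7 and 6.20 CPM in wild type and to 165 and 125 CPM in the knockout-labelled islets. Both knockout-labelled libraries were above both wild-type libraries, and the wild-type libraries differed widely from each other. Under DMXAA the same sum was 6.46 and 7.60 CPM in wild type and 7.84 and 11.1 CPM in the knockout-labelled libraries, all below those of the knockout-labelled DMSO libraries. Whether lymphoid tissue picked with the islets has a part in these differences was not tested.

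Cd79a, the signalling chain of the B cell receptor, lay at 1.63 and 1.72 CPM in wild type and 13.7 and 12.1 CPM in the knockout-labelled libraries (log2 difference 2.94 ± 0.45, adjusted p = 0.027). Fcmr, the receptor for the Fc part of IgM, lay at 0.421 and 0.394 against 4.33 and 4.36 CPM (3.40 ± 0.50, adjusted p = 0.011). Both were low in wild type and higher in both knockout-labelled libraries.

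Immunoglobulin heavy chain genes were included. Ighd, the IgD constant region of naive B cells, lay at 1.37 and 0.148 CPM in wild type and 7.67 and 11.1 CPM in the knockout-labelled libraries (log2 difference 3.66 ± 0.52, adjusted p = 0.0098). Ighg2c, an IgG constant region, had 2 and 1 counts in wild type and 298 and 185 counts in the knockout-labelled libraries. With these few wild-type counts the ratio of the summed counts, scaled for library size, was 194 (exact 95% interval 66.0 to 943.8, for counting error alone). Ighg2b had 18 and 2 against 161 and 77 counts. The Ighg2b and Ighg2c genes lie 17.6 kb apart and share sequence, so counts can be split between them. Ighm, the IgM constant region, lay at 17.2 and 1.28 against 46.9 and 27.4 CPM, without overlap but with an adjusted p of 0.52.

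The antigen presentation genes that rose include 4 from the MHC class II region of chromosome 17 or its regulator. Ciita, the master coactivator of MHC class II transcription, lay at 0.947 and 0.738 CPM in wild type and 4.67 and 4.42 CPM in the knockout-labelled libraries (log2 difference 2.42 ± 0.41, adjusted p = 0.032). H2-Ob, a chain of the DO peptide editor that B cells express, lay at 1.21 and 0.148 against 6.13 and 4.93 CPM (adjusted p = 0.031), and H2-DMb2 at 0.526 and 0 against 3.67 and 2.66 CPM (adjusted p = 0.042). H2-Eb2 had 2 and 0 counts against 34 and 39, a ratio of 44.0 (exact 95% interval 11.7 to 369.9). The more abundant class II genes were closer between genotypes: Cd74, the invariant chain, lay at 89.9 and 97.2 against 122 and 149 CPM (adjusted p = 0.28). Of 9 tested class II genes edgeR called 3, DESeq2 3 and limma-voom 0, with 6 at an unadjusted p under 0.05, and all 9 were positive with a median of 0.68. Fcrla, an Fc receptor-like protein of germinal centre B cells, completes the B lymphocyte group at 0.526 and 0.0984 against 2.87 and 3.28 CPM.

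Genes shared by lymphocytes rose too. Coro1a, an actin regulator of leukocytes, went from 5.21 and 2.66 CPM to 14.1 and 14.4 CPM (log2 difference 1.86 ± 0.30, adjusted p = 0.027). Arhgap45, a GTPase-activating protein, went from 3.00 and 0.984 CPM to 14.9 and 14.5 CPM (2.89 ± 0.42, adjusted p = 0.014). Sash3, a lymphocyte adaptor, went from 1.16 and 0.295 CPM to 6.002 in both knockout-labelled libraries (3.06 ± 0.48, adjusted p = 0.017). In each, the lower of the wild-type values was in replicate 2, as for the B cell marker sum. Rasgrp2, a Rap1 activator, and Gimap3, a GTPase of lymphocytes, showed log2 differences of 3.27 and 2.62.

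No T cell or macrophage marker was called. Of 13 listed T and NK markers 6 were abundant enough to test. All 6 had positive differences with a median of 2.09 (4 at an unadjusted p under 0.05, 1 called by DESeq2, 0 by limma-voom). That median was 3.94 without wild-type DMSO replicate 1 and 1.49 without wild-type DMSO replicate 2. Cd3e, a chain of the T cell receptor complex, lay at 0.158 and 0 CPM in wild type and 1.33 and 1.25 CPM in the knockout-labelled libraries (adjusted p = 0.079). Of 21 tested macrophage markers, 9 were positive and 12 negative, with a median of -0.09 (1 at an unadjusted p under 0.05, 0 by DESeq2 and by limma-voom). Adgre1, which encodes F4/80, lay at 6.68 and 4.23 against 3.33 and 4.36 CPM (adjusted p = 0.58), with overlap. The macrophage marker sums were 189 and 136 CPM in wild type and 170 CPM in both knockout-labelled libraries, so the knockout-labelled values fell between those of wild type.

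**Figure D3:**
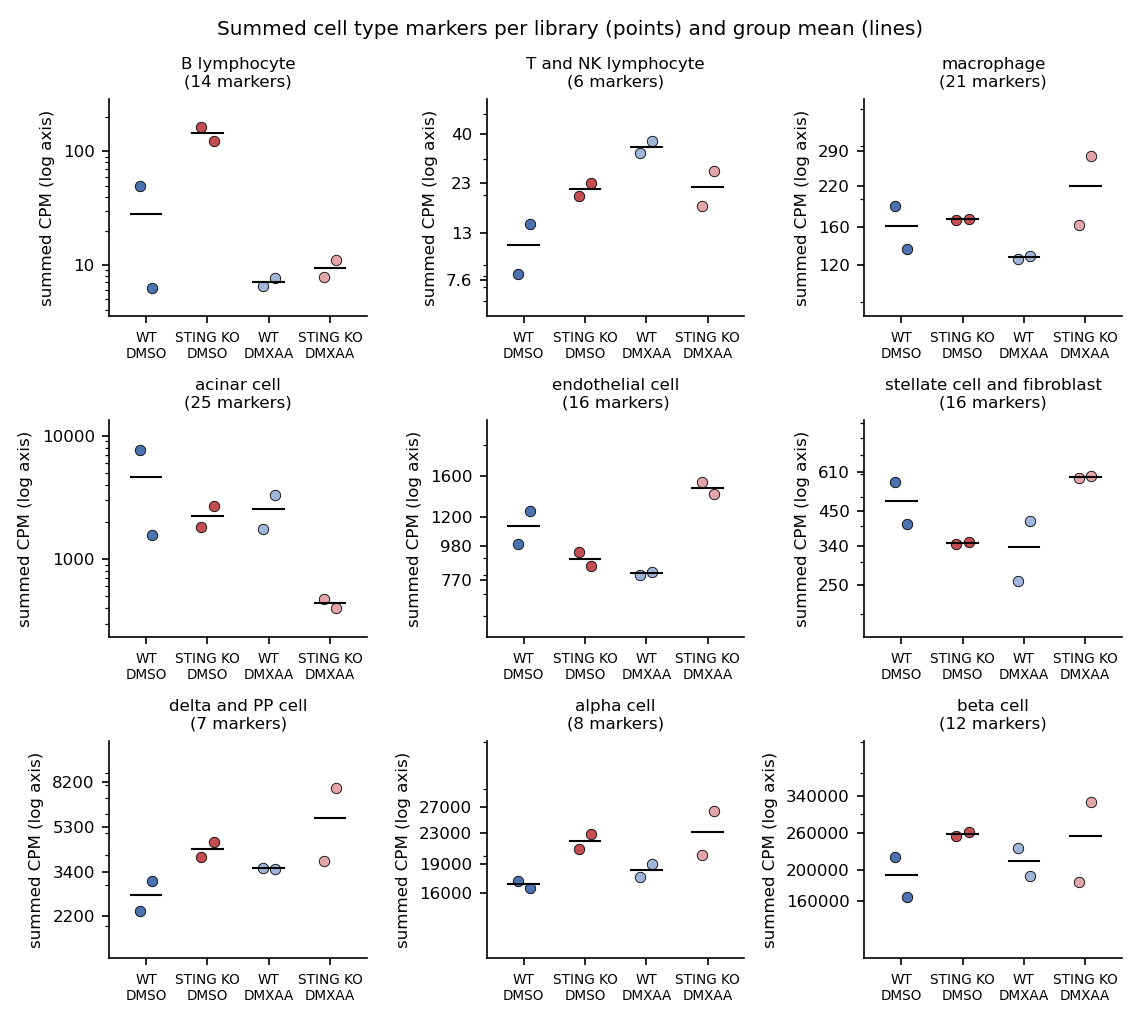
Summed CPM (log axes) of the tested markers of 9 cell types, with a point per library and a line at the group mean (2 libraries a group); the number of tested markers is in each panel title. B lymphocyte markers reach 125 to 165 CPM in the knockout-labelled DMSO libraries alone, and acinar markers range from 1557 to 7722 CPM within wild-type DMSO.

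The genes that fell include vessel, pericyte and matrix genes. Kcnj2, which encodes the inward rectifier potassium channel Kir2.1 present in endothelium, had 22.1 and 22.4 CPM in wild type and 6.27 and 5.15 CPM in the knockout-labelled libraries. It fell by 1.97 on the log2 scale (SE 0.34, adjusted p = 0.041). Calcrl, a receptor for CGRP and adrenomedullin in endothelium, fell from 35.7 and 20.6 CPM to 9.94 and 8.49 CPM (log2 difference -1.61 ± 0.28, adjusted p = 0.039). Ltbp2, a matrix protein that binds microfibrils, went from 17.8 and 11.6 CPM to 4.60 and 4.81 CPM (log2 difference -1.64 ± 0.29, adjusted p = 0.040). For all 3 genes both knockout-labelled values were below both wild-type values.

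Col6a3, a chain of type VI collagen, went from 62.0 and 39.5 CPM in wild type to 23.2 and 20.3 CPM (log2 difference -1.22 ± 0.22, adjusted p = 0.042). Rgs5, a regulator of G protein signalling typical of pericytes, went from 43.7 and 35.2 CPM to 19.8 and 20.2 CPM (-0.98 ± 0.17, adjusted p = 0.040). These were the members edgeR called of 16 stellate cell and fibroblast markers (3 by DESeq2, 0 by limma-voom, 5 at an unadjusted p under 0.05), of which 14 were negative with a median of -0.98. Without wild-type DMSO replicate 1 that median was -0.34. Wild-type DMSO replicate 1, the library with the most acinar RNA, was the higher of the wild-type libraries for Calcrl, Ltbp2, Col6a3 and Rgs5. With the summed acinar markers as a covariate, 4 of the 5 vascular and stromal calls remained (Kcnj2 was lost). Leaving out wild-type DMSO replicate 1 leaves a single library in that group, so only sizes of difference are given for these 5 genes without it. The covariate fit keeps that library, so it does not show that the calls hold without it. Whether acinar RNA has a part in these differences was not tested. The wild-type values of Kcnj2 were close, and its log2 difference lay between -2.12 and -1.84 in the 17 alternatives. The ranges were -1.96 to -1.18 for Calcrl, -1.92 to -1.31 for Ltbp2, -1.51 to -0.88 for Col6a3 and -1.13 to -0.83 for Rgs5.

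Endothelial markers as a list were less displaced. Of 16 tested, none was called (5 at an unadjusted p under 0.05, 2 by DESeq2, 0 by limma-voom), 14 were negative, and the median was -0.25. Kdr, the main VEGF receptor, lay at 166 and 185 CPM in wild type and at 115 and 116 CPM in the knockout-labelled libraries (adjusted p = 0.14). Nrp1, a VEGF co-receptor, lay at 25.4 and 33.5 against 14.4 and 14.2 CPM (adjusted p = 0.071). The genotypes did not overlap for either gene. Of 32 tested genes of Notch, VEGF and vascular signalling, Kcnj2 was edgeR's single call (5 by DESeq2, 0 by limma-voom, 15 at an unadjusted p under 0.05), 23 were negative, and the median was -0.47, or -0.20 without wild-type DMSO replicate 2.

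The other lower genes were Tshz3, a zinc-finger homeobox factor, and Muc4, a membrane mucin of epithelia. Tshz3 went from 56.2 and 70.0 CPM in wild type to 31.3 and 33.1 CPM in the knockout-labelled libraries (log2 difference -0.97 ± 0.16, adjusted p = 0.028). Muc4 went from 66.5 and 84.3 CPM to 43.9 and 36.1 CPM (-0.92 ± 0.17, adjusted p = 0.042). For both genes every knockout-labelled value was below every wild-type value. The remaining higher genes were Arl4d, a small GTPase, at 6.73 and 6.89 against 18.1 and 16.1 CPM, Dpp6, an auxiliary potassium channel subunit, at 6.57 and 7.18 against 14.3 and 17.5 CPM, Fam169b, and the predicted gene Gm21738. Fam169b had 2 and 1 counts in wild type and 45 and 34 in the knockout-labelled libraries, a ratio of 31.7 (exact 95% interval 10.5 to 157). Gm21738 had 1 and 0 counts against 155 and 79, a ratio of 282 (50.1 to 11180, the upper limit resting on a single wild-type count).

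No gene of the endocrine lists was called by edgeR. This held for 12 beta cell markers (median log2 difference 0.20), 8 alpha cell markers (0.35), 21 tested islet transcription factors (0.07) and 41 genes of glucose sensing and insulin secretion (-0.04). At an unadjusted p under 0.05 there were 0, 2, 1 and 3 of these genes, DESeq2 called 0, 1, 0 and 0, and limma-voom called 0 in each list. Of 7 delta and PP cell markers, edgeR called 0, DESeq2 1 and limma-voom 0, with 3 at an unadjusted p under 0.05. Of these markers 6 were positive, and the median was 0.68, or 0.27 without wild-type DMSO replicate 1. Ins2 lay at 151600 and 104200 CPM in wild type and 169300 and 177800 CPM in the knockout-labelled libraries (log2 difference 0.44, adjusted p = 0.58), and Gcg, encoding glucagon, at 16050 and 15230 against 19280 and 21230 CPM (adjusted p = 0.48). Sst, encoding somatostatin of delta cells, came closest to a call, at 861 and 920.4 against 1749 and 2142 CPM (log2 difference 1.13 ± 0.21, adjusted p = 0.053). Neither Ins2, Gcg nor Sst overlapped between genotypes. Acinar markers had a median of -0.93 over 25 tested genes, 23 of them negative, with 0 called by any of the 3 tools (1 at an unadjusted p under 0.05). The direction of that median turned without wild-type DMSO replicate 1, to 0.52.

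**Figure D4:**
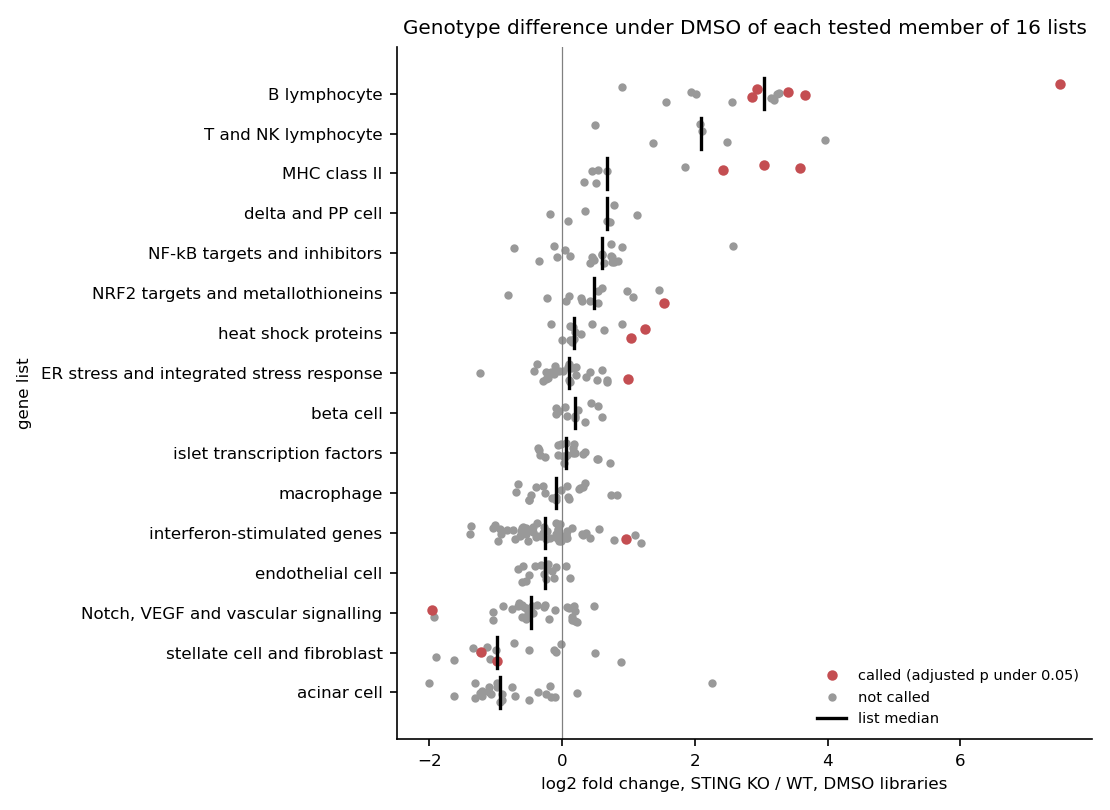
Log2 fold change between genotypes under DMSO (x axis) for every tested member of 16 gene lists (y axis), with called genes in red, uncalled ones in grey and a bar at each list's median. B lymphocyte markers (median 3.04) lie farthest to the right and stellate cell and fibroblast markers (-0.98) farthest to the left. The median of the beta cell markers is 0.20.

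The same genotype contrast under DMXAA, in 4 other libraries, called 407 of 17055 genes (2.39%). Of the 38 genes called under DMSO, 10 were called there as well, 8 of them in the same direction, which is 21.1% of the DMSO list and 1.97% of the DMXAA list. These 8 were Gm21738, C2cd4a, Hmox1, Cebpd, Hspa1a, Hspa1b, Muc4 and Tshz3. Hmox1 lay at 137 and 213 CPM in wild type and 378 and 481 CPM in the knockout-labelled DMXAA libraries (log2 difference 1.29 ± 0.21, adjusted p = 0.0030). Tshz3 lay at 62.7 and 59.6 against 31.4 and 27.1 CPM (-1.06 ± 0.16, adjusted p = 0.0018). For both, the genotypes were again apart and the interaction was not called (adjusted p = 0.85 for Hmox1 and 0.94 for Tshz3). Of the 16 B lymphocyte, antigen presentation and leukocyte genes, edgeR called 0 under DMXAA (4 at an unadjusted p under 0.05, 1 by DESeq2, 0 by limma-voom).

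The genotype difference itself differed between DMXAA and DMSO for 6 of the 38 genes (Ighg2c, C2cd4a, Irf1, Col6a3, Calcrl and Kcnj2). Over all genes tested the share was 1.2%. The 38 genes were chosen for their DMSO difference, which is part of the interaction, so these shares cannot be compared. Kcnj2 turned around: under DMXAA it lay at 2.53 and 4.32 CPM in wild type and at 32.0 and 15.4 CPM in the knockout-labelled libraries, a log2 difference of 2.79 ± 0.35, and the interaction was 4.76 (adjusted p = 0.00040). Irf1 turned the other way, to 165 and 145 against 65.7 and 67.8 CPM under DMXAA, a log2 difference of -1.22 and an interaction of -2.19 (adjusted p = 0.00025). C2cd4a kept its direction with a smaller size, at 23.2 and 22.7 against 34.3 and 36.9 CPM, a log2 difference of 0.64 and an interaction of -1.03 (adjusted p = 0.033). Calcrl and Col6a3 overlapped between genotypes under DMXAA, with log2 differences of 0.15 and 0.27. Ighg2c had 23 and 0 counts under DMXAA in wild type and 0 in both knockout-labelled libraries.

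**Figure D5:**
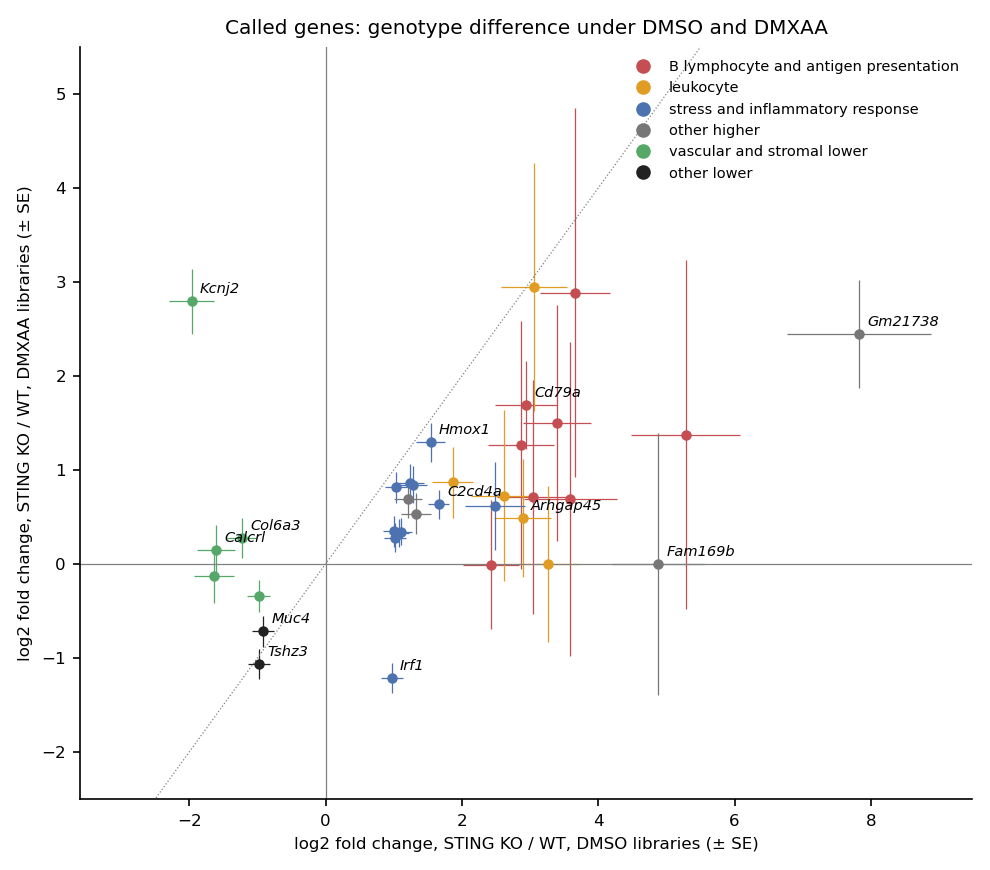
Log2 fold change of knockout-labelled over wild type under DMSO (x axis) and under DMXAA (y axis), each with its standard error, for 35 of the 38 called genes coloured by role group; Ighg2c, Ighg2b and Fcrla are left out because a DMXAA group had no count, and the dotted line marks equal differences. Hmox1 and Tshz3 lie near that line, most lymphocyte genes lie below it, and Kcnj2 lies far above it at 2.79 under DMXAA.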

How the data were processed

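Raw counts per Ensembl gene were deposited by the authors for each library. Reads came from polyA-selected cDNA, per the labels' protocols, and HISAT2, HTSeq and the mm10 build are named in the submitters' processing notes, with no versions, no annotation and no strand setting given in the sources used here. Without the strand setting, antisense and overlapping genes cannot be told apart, and near-identical copies can share or lose reads. Gene names came from GENCODE M21, which matched 54495 of 54532 identifiers.

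From the counts, edgeR 4.0.16 in R 4.3.3 gave TMM scaling, CPM (counts over each library's TMM-scaled total) and a quasi-likelihood fit of all 8 libraries with 1 coefficient a group and 4 residual degrees of freedom, after its default filter (17055 genes). P-values were Benjamini-Hochberg adjusted over all genes tested, with a threshold of 0.05. DESeq2 1.42.0 and limma 3.58.1 served as alternatives, beside other scalings, filters, a replicate block, an acinar covariate and leaving out each library.

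Genes named were the 15 largest rises and all falls among called genes of at least 1 CPM with a standard symbol, up to 3 members of each list by p-value, and a few fixed genes. The other called genes, and Atf4, Hspa5, Cd74 and Ighm, were named after their values were seen. The members of the comparison and the lists were chosen with earlier results of these data known. A called gene is counted but not reported by name or value here.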

Additional observations from a re-analysis of the deposited data

Results flagged for a closer look

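For 16 of the genes named here, the genotype difference under DMXAA differed from that under DMSO by a test of the difference itself (edgeR's quasi-likelihood interaction, log2 scale). No group had enough libraries to test for a library far from the others. Values are the difference under DMXAA minus that under DMSO.

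Among interferon-stimulated and inflammatory genes the DMXAA difference was the more negative: -4.94 for Oasl1, -5.25 for Rsad2, -2.19 for Irf1, -7.12 for Cxcl10, -1.78 for Nfkbia, -2.08 for Ifih1 and -3.90 for Cxcl2. Of these, Irf1, Nfkbia, Cxcl2 and Cxcl10 had positive values under DMSO, at 0.97, 0.78, 1.64 and 0.50, and negative ones under DMXAA, though Irf1 alone was called under DMSO. C2cd4a, at -1.03, was positive under both treatments. Ighg2c had a value of -14.0, which depends on the fit because both knockout-labelled DMXAA libraries held 0 counts. The wild-type DMXAA libraries held 23 and 0 counts, so its negative difference under DMXAA rests on a single library.

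Among vascular and matrix genes the DMXAA difference was the more positive: 4.76 for Kcnj2, 1.72 for Kdr, 1.78 for Nrp1, 1.55 for Flt1, 1.499 for Col6a3 and 1.76 for Calcrl. Plk2, a stress-induced kinase gene, had 2.17, from -0.57 under DMSO to 1.599 under DMXAA.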

How the results depend on the processing

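All 38 called genes kept their direction under every alternative fit. The fits reuse libraries that did not overlap between genotypes for these genes, so a kept direction adds no support. The number of calls moved with the filter and the tool. Against 38 calls, there were 159 with no filter on low counts, 25 with a stricter filter, 17 with the older form of the quasi-likelihood fit, 155 with DESeq2, 18 with limma-voom and 25 with the 4 DMSO libraries alone. Leaving out single libraries gave 3 to 240 calls. Calls shared with the 38 numbered 37, 25, 17, 35, 18 and 19 under those settings, of which the 11 B lymphocyte and antigen presentation genes made up 10, 6, 1, 8, 2 and 5. The 5 vascular and stromal genes kept no call with the stricter filter, the older form or limma-voom. The interaction called 204 genes, 312 with DESeq2, and 87 to 304 with single libraries left out. With single libraries left out, the log2 differences of these uncalled genes changed sign within their ranges: Sting1 -0.93 to 0.63 (also -0.18 with limma-voom), Cxcl10 -0.044 to 1.34, Reg1 -2.82 to 0.021 and Hspa5 -0.28 to 0.061. That of Ifnb1 ran from 0 to 3.43. The cause was not tested for any of these shifts. With a replicate block there were 56 calls, including all 38, and 217 interaction calls. Correlations of same-numbered libraries' deviations ran from -0.10 to 0.075, so the numbers were not taken to pair samples. Low counts limit the lymphocyte genes, several of which had 0 to 3 counts in a wild-type library.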

Other observations

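Some lists not described above also held genes that were apart between genotypes without an edgeR call. Of 36 immediate early and ERK feedback genes, 7 had an unadjusted p under 0.05 and DESeq2 called 4 (limma-voom 0), with a median log2 difference of 0.12. The 12 tested mRNAs encoded by mitochondria added up to 11910 and 9137 CPM under DMSO in wild type, and the knockout-labelled islets had 12710 and 15950 CPM, with 2 at an unadjusted p under 0.05 (DESeq2 2, limma-voom 0). Of 17 matrix proteases and inhibitors, 14 were negative with a median of -0.38, and they summed to 445 and 443 CPM in wild type against 351 and 293 CPM (8 at an unadjusted p under 0.05, 0 by DESeq2 and by limma-voom). The Reg family, secreted proteins of acinar and regenerating tissue, had 5 of 5 tested members negative, but its wild-type sums of 287 and 34.4 CPM overlapped the knockout-labelled sums of 33.3 and 40.3 CPM. MHC class I and peptide loading genes had a median of 0.021 over 20 genes, with 0 called by any of the 3 tools and 1 at an unadjusted p under 0.05.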
